A study of Saccharomyces cerevisiae with 40 samples.

Results

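Transcripts of amino acid permeases and vacuolar amino acid transporters were followed in budding yeast, *Saccharomyces cerevisiae*, overfed with an amino acid, a different one in each treated group. The genes were chosen by name: 36 were listed, 35 of them were found among the 6462 genes of the table, and *VBA3* was not analysed here. Of the 35, 23 were counted as plasma membrane genes and 12 as vacuolar genes of the AVT, VBA and YPQ families. The grouping follows the families: *TPO5* is counted with the plasma membrane although its product is known from Golgi-derived vesicles, and *VBA5* with the vacuole although its product is known from the plasma membrane. The 9 treated groups were Ala (alanine), Gly (glycine), Val (valine), Ile (isoleucine), Thr (threonine), Phe (phenylalanine), Trp (tryptophan), Cys (cysteine) and Met (methionine). They were set against the control group, Ctrl, and each of the 10 groups had 4 libraries. Strain, genotype, dose and time are not in the labels, and the amino acids may have been given at unequal doses. The 4 libraries of a group are lettered A to D, and the labels call these letters batches.

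Yeast takes up amino acids through a family of related permeases, some of narrow and some of broad specificity. Extracellular amino acids are sensed at the plasma membrane by the SPS complex (Ssy1, Ptr3 and Ssy5), which releases the transcription factors Stp1 and Stp2 to induce several permease genes. Other permease genes are repressed on good nitrogen sources and are activated by the GATA factors Gln3 and Gat1 when nitrogen is poor. The vacuole stores amino acids, above all basic ones, and its transporters move them in or out of the organelle.

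Values are normalized reads per gene and library as deposited, and differences are given on the scale of log2(value + 1) with their standard error. A gene is called higher or lower where limma's adjusted p was under 0.05 over the 6103 genes tested, all 35 of these genes among them. The 9 comparisons share the same 4 Ctrl libraries, so they are not independent of each other. Estimated depths were 5555866 to 17928682 reads per library (median 8736146). Across genes, the 60 pairs of libraries from the same group had r of 0.960 to 0.992. A level is an average over a culture, so more cells with a transcript and more transcript per cell cannot be told apart. The summed level of 6 stress markers was 5455 ± 2149.6 normalized reads in Gly and 749 ± 85.3 in Ctrl (SD, n = 4 each), and in Phe it was 9485 in replicate C and 939.7 to 1716 in the other 3 libraries. It was 2797 ± 1324 in Ala (1306 to 4277), 2246 ± 1269.9 in Trp (1062 to 4023) and 1880.1 ± 90.2 in Thr (1757 to 1966). All libraries of these groups, and of Gly, Phe, Met and Val, lay above the highest of Ctrl (833), while Ile and Cys overlapped Ctrl. The summed level of 6 hypoxia markers was 40873 ± 13465 in Ala and 1193 ± 188 in Ctrl, and 972.7 to 1746 as means of the other 8 amino acids. The part of these differences in the results below was not tested. Markers of mating type a summed to 4378 to 20879 normalized reads per library and those of mating type alpha to 319 to 638, with no marker at 0. The mating type a sum was 5141 ± 513 in Gly, 8728 ± 614 in Thr and 11339.5 ± 1362 in Met, against 14992 ± 93.3 in Ctrl (SD, n = 4 each), with no overlap. In Cys it was 18825 ± 1734, above every Ctrl library, as it was in Phe (16848 ± 1148) and Ile (16535 ± 292), and the part of this in the results was not tested.

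Among plasma membrane genes, 22 of 23 were called against Ctrl with at least 1 of the 9 amino acids, *TPO5* being the exception. Among vacuolar genes, 5 of 12 were called: *AVT4*, *AVT7*, *VBA1*, *YPQ1* and *YPQ2*. Of all genes tested, 61.6% were called at least once, and the difference between the 2 places was not tested. A test over all 10 group means called 31 of the 35 genes (limma's moderated F test), where 66.8% of all genes were called, and *VBA2*, *AVT3*, *TPO5* and *VBA5* did not pass it. With the letters as a block the count was 32, *AVT3* passing as well (adjusted p = 0.0450). In all, 5 genes were called in 5 or more of the 9 comparisons: *DIP5*, *MMP1*, *AVT7*, *GAP1* and *LYP1*, beside 4.47% of all genes. *GAP1*, *BAP2*, *ALP1*, *MUP1* and *MMP1* were higher with some amino acids and lower with others, which held for 5.46% of all genes. The map of differences by gene and amino acid shows these patterns.

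**Figure D1:**
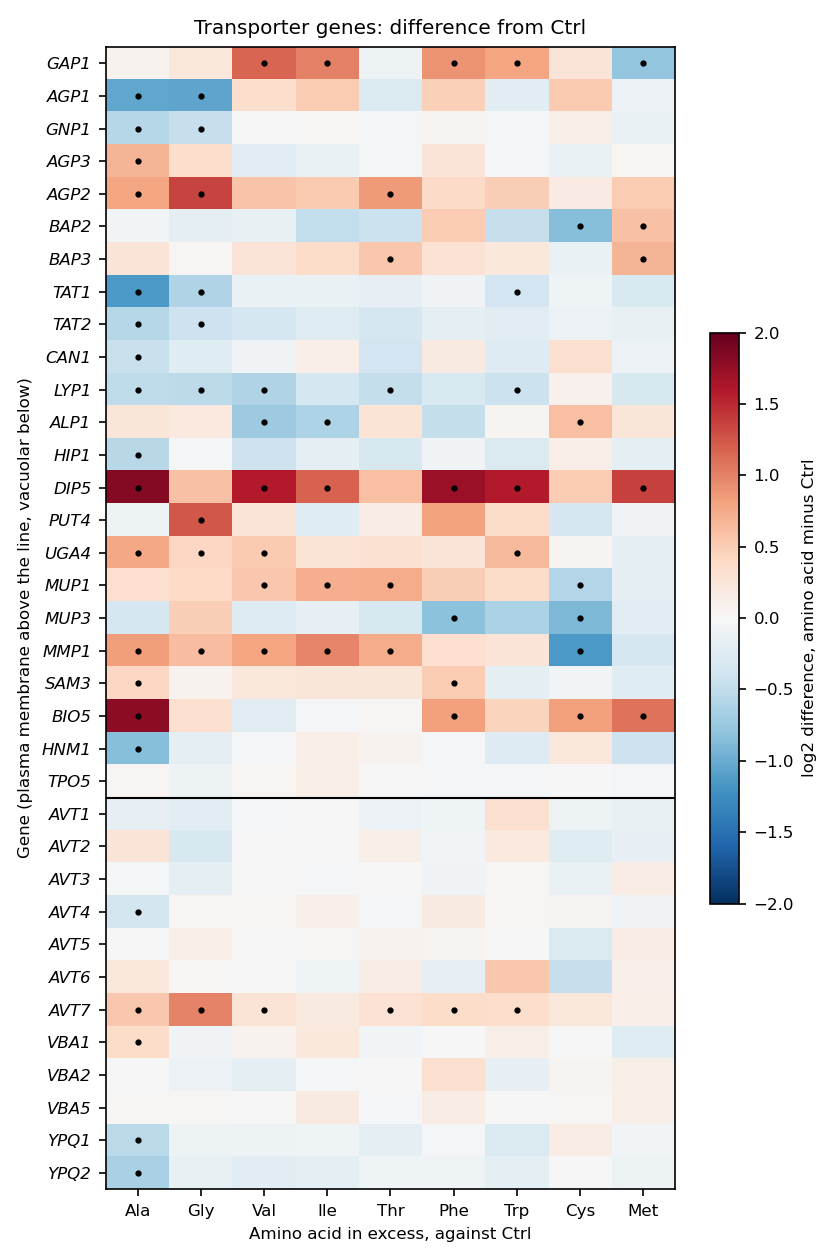
Log2 difference (amino acid minus Ctrl) of the 35 genes, plasma membrane above the black line and vacuolar below it, for the 9 amino acids. Dots mark differences called at an adjusted p under 0.05 (limma); *DIP5* was called higher in 6 columns, and *AVT7* is the vacuolar gene called in more than 1 column.

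In Ala, 20 of the 35 genes were called, where 47.2% of all genes tested were called: 9 were higher, beside 23.1% of all genes, and 11 lower, beside 24.2%. In Gly, 10 were called beside 26.2% of all genes, 5 higher beside 14% and 5 lower beside 12.2%. The shares of the set in these groups, 57.1% in Ala and 28.6% in Gly, lay near those of all genes. In Val, 8 were called beside 5.39% of all genes, 6 higher beside 2.51% and 2 lower beside 2.88%. In Ile, 5 were called beside 1.92%, 4 higher beside 1.26% and 1 lower beside 0.655%. In Cys, 6 were called beside 2.83%, 2 higher beside 1.29% and 4 lower beside 1.54%. The shares of the set in these 3 groups, 22.9%, 14.3% and 17.1%, were above those of all genes. In Thr, 6 were called beside 11.2%, 5 higher beside 5.87% and 1 lower beside 5.33%. In Phe, 6 were called beside 5.6%, 5 higher beside 3.7% and 1 lower beside 1.9%. In Trp, 6 were called beside 12.3%, 4 higher beside 6.32% and 2 lower beside 6%. In Met, 5 were called beside 9.8%, 4 higher beside 6.06% and 1 lower beside 3.74%. The set's shares were above those of all genes here too, at 17.1% in each of Thr, Phe and Trp and 14.3% in Met. The bars for plasma membrane genes were above those for all genes with each of the 9 amino acids. Those for vacuolar genes were above them in Val and Phe, but each of these bars was 1 of 12 genes, *AVT7*. Its call in Val was lost under equal library totals. Single libraries moved the smaller counts. In Val, 5 genes were called without Val replicate B or C or Ctrl replicate A. In Ile, 3 were called without Ile replicate A or D or Ctrl replicate B, and 2 without Ctrl replicate A. In Cys, 3 were called without Cys replicate A or Ctrl replicate C, and in Met, 3 without Met replicate D. In fits to the 2 compared groups alone, 10 genes were called in Thr, 13 in Trp and 2 in Cys. When every library was rescaled to the same total, the all-gene median in Ala shifted by 0.19 (log2), and 14 genes of the set were higher and 9 lower there. Among all genes tested, 2167 were then higher and 757 lower in Ala. That scaling gave 3 higher and 3 lower in Val, beside 114 and 283 of all genes. It gave 1 higher and 5 lower in Cys, beside 55 and 146 of all genes. No called difference changed its sign under that scaling or under rescaling by the median of ratios, which left the values nearly as they were.

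**Figure D2:**
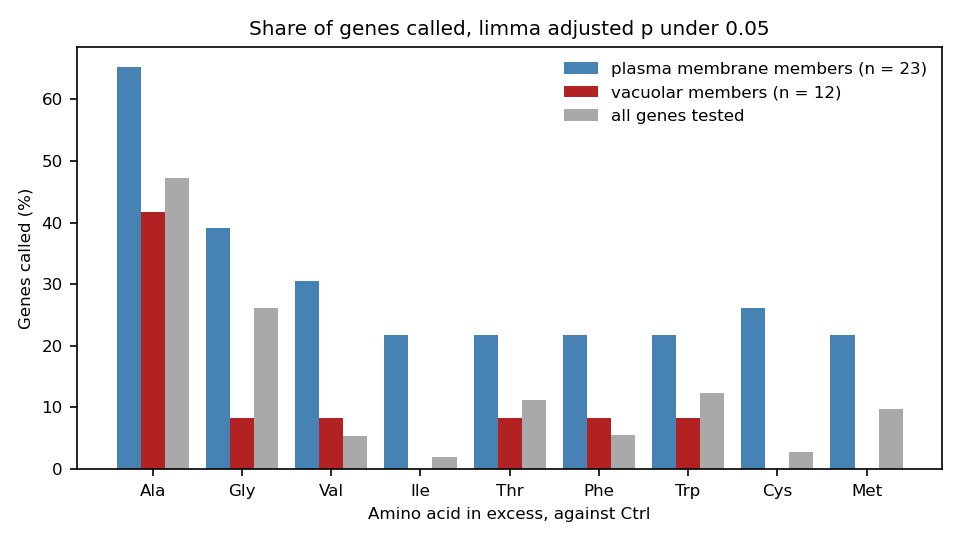
Percentage of genes called against Ctrl for each amino acid, for the 23 plasma membrane genes (blue), the 12 vacuolar genes (red) and all 6103 genes tested (grey). In Ala the shares are 65.2%, 41.7% and 47.2%, and in Cys 26.1% of the plasma membrane genes, no vacuolar gene and 2.83% of all genes.

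Of the permeases of broad specificity, *GAP1* was higher with Val, Ile, Phe and Trp and lower with Met, while *AGP1* and *GNP1* were lower with Ala and Gly. *GAP1* encodes the general amino acid permease, which is known for high levels on poor nitrogen sources. *GAP1* had 4441, 4268, 4839 and 4226 normalized reads in the Val libraries and 3591, 4403, 3233 and 4931 in the Ile libraries, against 1915, 1663, 2232 and 2182 in Ctrl. It had 3465, 3009, 5200.0 and 3384 in Phe and 3215, 3595, 3059 and 3992 in Trp. In Met it had 1096, 1633, 1277 and 773. All 4 libraries of Val, Ile, Phe and Trp lay above the highest Ctrl library, and all 4 Met libraries lay below the lowest. The log2 differences were 1.16 ± 0.20 in Val (limma adjusted p = 2.78e-04), 1.01 ± 0.20 in Ile (0.00274), 0.89 ± 0.20 in Phe (0.00411), 0.80 ± 0.20 in Trp (0.00763) and -0.78 ± 0.20 in Met (0.0109). Without Phe replicate C, the library with the high stress sum, the *GAP1* difference in Phe was 0.72 (adjusted p = 0.0312). The call of *GAP1* in Met was lost without Met replicate D (log2 -0.59, adjusted p 0.0695). In Ala, Gly, Thr and Cys the group means were 2091 ± 179, 2432 ± 816, 1865 ± 295 and 2439 ± 614, against 1998 ± 263 in Ctrl (SD, n = 4 each), and none of these was called.

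**Figure D3:**
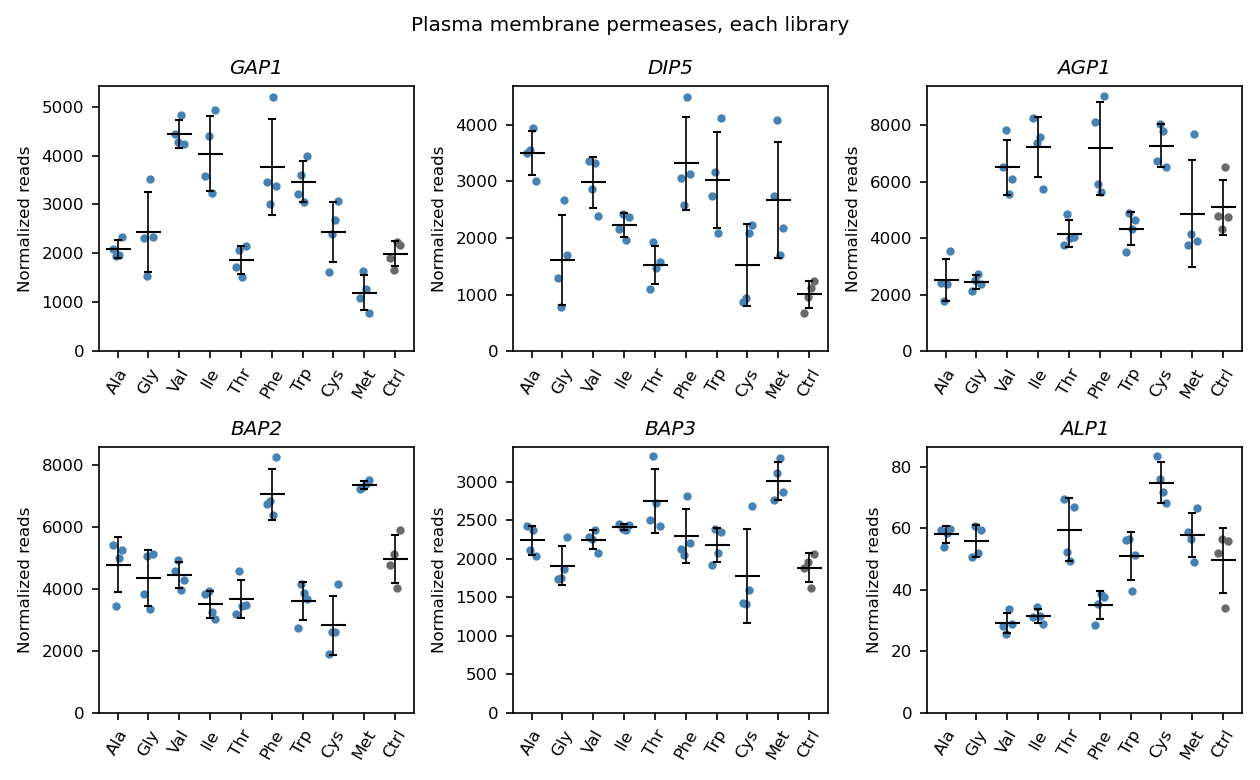
Normalized reads of 6 plasma membrane permease genes in each library (points), with the group mean and SD (n = 4), amino acid groups in blue and Ctrl in grey; each axis starts at 0. *GAP1* in Val lies between 4226 and 4839, above the highest Ctrl library, and *BAP2* is highest in Met and Phe and lowest in Cys.

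The stretch of the *GAP1* promoter that holds its GATAAG sequences is shown with those of *UGA4* and *CAN1*, because GATAAG is the core bound by the GATA factors and these 3 genes held the most copies in the set. The deposited table gives no coordinates, so the genes were looked up by name in the RefSeq annotation of build R64, and the 500 bases before each start codon were searched on both strands. Capitals mark GATAAG or its reverse complement CTTATC, and each stretch reads 5′ to 3′ on the strand of its gene. The *GAP1* stretch lies at chrXI:514588-514832, plus strand, that of *UGA4* at chrIV:83826-83864, plus strand, and that of *CAN1* at chrV:33722-33758, minus strand, all upstream of the coding sequence.
GAP1: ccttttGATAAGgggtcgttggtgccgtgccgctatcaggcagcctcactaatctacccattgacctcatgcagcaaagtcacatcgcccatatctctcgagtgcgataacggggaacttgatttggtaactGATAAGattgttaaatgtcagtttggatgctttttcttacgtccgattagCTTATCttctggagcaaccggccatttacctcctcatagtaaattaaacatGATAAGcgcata
UGA4: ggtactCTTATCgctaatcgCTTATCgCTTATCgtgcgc
CAN1: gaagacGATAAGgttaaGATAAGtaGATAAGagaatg
*GAP1* held 4 copies, and *UGA4* and *CAN1* held 3 each within a short window. At least 1 copy was found before 17 of the 35 genes and before 22.76% of 6006 yeast promoters of the same length, and 2 or more before 7 of the 35 and 3.63% of all. The genes were called with different amino acids: *GAP1* with Val, Ile, Phe, Trp and Met, *UGA4* with Ala, Gly, Val and Trp, and *CAN1* with Ala.

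*AGP1* encodes a low-affinity permease of many amino acids and *GNP1* a permease of glutamine and other neutral amino acids, and both are known targets of the SPS pathway. *AGP1* had 2419, 1778, 2369 and 3556 normalized reads in Ala and 2120.0, 2527, 2731 and 2398 in Gly, against 4795, 4329.8, 6525 and 4746 in Ctrl. *GNP1* had 4575, 4691, 4352 and 5211 in Ala and 4464, 4998, 5318 and 5418 in Gly, against 6170.1, 6818, 6925 and 7955 in Ctrl. Both groups lay below Ctrl with no overlap for either gene. *AGP1* differed by -1.04 ± 0.19 in Ala and -1.05 ± 0.19 in Gly (limma adjusted p = 3.52e-05 and 6.86e-05), and *GNP1* by -0.56 ± 0.09 and -0.46 ± 0.09 (1.15e-05 and 3.90e-04). In Cys, the group with the highest mean of both genes, *AGP1* stood at 7277 ± 748 and *GNP1* at 7695 ± 1019, and neither was called. The values of *GNP1* were whole reads in 8 of 40 libraries, so its level is uncertain.

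*AGP2*, whose product is known as a plasma membrane regulator of carnitine and polyamine uptake, was higher with Gly, Thr and Ala. It had 355, 341, 579.5 and 464 normalized reads in Gly, 256, 356, 248 and 355 in Thr and 270.5, 297, 333 and 259.8 in Ala, against 139.5, 133, 199 and 206 in Ctrl, and none of these groups overlapped Ctrl. The differences were 1.35 ± 0.24 in Gly, 0.84 ± 0.24 in Thr and 0.79 ± 0.24 in Ala (limma adjusted p = 4.82e-05, 0.0156 and 0.00632). *AGP3*, for a low-affinity permease, was expressed at 106, 131, 115 and 91.1 in Ala, against 72.7, 62.5, 66.3 and 72.4 in Ctrl, a rise of 0.68 ± 0.20 on the log2 scale (adjusted p = 0.00653). The Ala libraries lay above Ctrl for *AGP3*, and in the other 8 groups its means were 60.1 to 89.4 and not called. *AGP2* in Thr was not called without Thr replicate B or D or Ctrl replicate A or B (log2 0.74 to 0.76, adjusted p 0.0564 to 0.0656).

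The permeases of branched-chain and aromatic amino acids did not move together. *BAP2* and *BAP3* encode permeases of branched-chain amino acids, *TAT1* one of tyrosine, tryptophan and branched-chain amino acids, and *TAT2* the high-affinity permease of tryptophan and tyrosine. *BAP2* had 7215, 7297, 7380.4 and 7493 normalized reads in Met and 1895, 2615, 2605 and 4152 in Cys, against 4774, 5122, 4017 and 5892 in Ctrl. The Met libraries were all above Ctrl and within a narrow band, while the highest Cys library exceeded the lowest Ctrl library. *BAP2* rose by 0.58 ± 0.17 in Met and fell in Cys, by a log2 difference of -0.86 ± 0.17 (limma adjusted p = 0.0250 and 0.00208). In Phe, *BAP2* had 6726, 6837, 6375 and 8236, all above Ctrl, and in Trp 2721, 4138, 3862 and 3659. These differences, 0.52 ± 0.17 and -0.47 ± 0.17, were not called (adjusted p = 0.0757 and 0.0704) but passed with the letters as a block (adjusted p = 0.0437 and 0.0435). *BAP3* had 2766, 3119, 3309.8 and 2866 in Met and 2501, 3338, 2724 and 2427 in Thr, against 1886, 1961, 1621 and 2061 in Ctrl, with no overlap. The rises were 0.68 ± 0.14 and 0.54 ± 0.14 (adjusted p = 7.07e-04 and 0.00629). With Val and Ile, the branched-chain amino acids supplied, no member of this group of 4 was called: the log2 differences of *BAP2* were -0.15 and -0.49 and those of *BAP3* 0.26 and 0.36 (95% intervals of *BAP3* -0.01 to 0.53 and 0.09 to 0.64). The call of *BAP2* in Met was lost without Met replicate D or Ctrl replicate A or C (log2 0.49 to 0.57, adjusted p 0.0537 to 0.103). In a fit to the 2 groups alone, *BAP2* in Cys had an adjusted p of 0.0669.

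*TAT1* and *TAT2* were lower with Ala and Gly. *TAT1* had 2097, 1825, 1754 and 2686 normalized reads in Ala, 2891, 3408, 2795 and 2989 in Gly and 3087, 3809, 3932 and 3319.9 in Trp, against 4507, 4531, 4861 and 4387 in Ctrl, and each of the 3 groups lay below Ctrl. The differences were -1.15 ± 0.12 in Ala, -0.60 ± 0.12 in Gly and -0.38 ± 0.12 in Trp (limma adjusted p = 1.03e-09, 2.40e-04 and 0.0320). *TAT2* had 1540.2, 1299, 1318 and 1800.1 in Ala and 1399, 1832, 1518 and 1876 in Gly, against 2008, 2145, 2085 and 2533 in Ctrl, again with no overlap. It fell in Ala (log2 -0.56 ± 0.14, adjusted p = 0.00105) and in Gly (-0.41 ± 0.14, 0.0250). In Thr the *TAT2* difference of -0.33 was not called (adjusted p = 0.125, and 0.0422 with the letters as a block). *TAT1* in Trp was not called without Trp replicate A or D or Ctrl replicate A, B or C (log2 -0.38 to -0.31, adjusted p 0.0613 to 0.130). *TAT2* in Gly lost its call without Gly replicate A or C or Ctrl replicate D (log2 -0.37 to -0.33, adjusted p 0.0773 to 0.106). Of the 7 known SPS-induced permease genes in the set (*AGP1*, *BAP2*, *BAP3*, *TAT1*, *TAT2*, *GNP1* and *DIP5*), 4 fell and 1 rose in Ala, 4 fell in Gly, and 3 rose in Met. Of all genes, 24.2% fell and 23.1% rose in Ala, 12.2% fell in Gly and 6.06% rose in Met. In each of Val, Ile, Thr, Phe and Trp 1 of the 7 rose, and in each of Trp and Cys 1 fell. The shares of all genes that rose were 2.51% in Val, 1.26% in Ile, 5.87% in Thr, 3.7% in Phe and 6.32% in Trp. Those that fell were 6% in Trp and 1.54% in Cys. The median difference of the 7 genes was -0.56 in Ala, -0.41 in Gly and -0.12 in Met, beside -0.01, -0.02 and 0.00 over all genes. The letters CGGC are the repeat in sites of Stp1 and Stp2. They were found 7 times before *TAT1*, 6 times each before *BAP2* and *BAP3* and 5 times before *GNP1*. There were 4 copies before *AGP1*, 3 before *TAT2* and none before *DIP5*. On either strand, 2 or more copies were held by 21 of the 35 genes and by 37.45% of all promoters. Outside these 7 genes, *MUP1* held 9 copies, *UGA4* 6, and *ALP1*, *BIO5* and *AVT3* 4 each, so such copies were not particular to the SPS-induced genes.

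Among the permeases of basic amino acids, *LYP1* was lower with 5 amino acids, and *ALP1* was lower with Val and Ile and higher with Cys. *LYP1* encodes the lysine permease, *CAN1* the arginine permease, *ALP1* a related permease of arginine, and *HIP1* the high-affinity histidine permease. *LYP1* had 3129.9, 3818, 3308 and 3659.7 normalized reads in Val, 3104, 4489.5, 3047 and 4276 in Gly and 3894, 3114, 3524 and 4442 in Ala, against 4902, 5188, 5144 and 5939.6 in Ctrl. In Thr it had 3653, 4074, 3282 and 4202 and in Trp 3220.3, 4406, 4596 and 3662. Every library of these 5 groups lay below the lowest Ctrl library. The differences were -0.61 ± 0.13 in Val, -0.52 ± 0.13 in Gly, -0.51 ± 0.13 in Ala, -0.48 ± 0.13 in Thr and -0.43 ± 0.13 in Trp (limma adjusted p = 0.00347, 0.00340, 0.00225, 0.0149 and 0.0309). In Ile, Phe and Met the differences were -0.35, -0.31 and -0.32 and not called, and in Cys 0.09. *LYP1* in Thr was not called without Thr replicate C or Ctrl replicate D (log2 -0.42 to -0.41, adjusted p 0.0643 to 0.0666). The call of *LYP1* in Trp was lost without Trp replicate A or D or Ctrl replicate B or D (log2 -0.43 to -0.33, adjusted p 0.0587 to 0.150).

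*ALP1* was expressed at 28.2, 25.8, 33.7 and 29 normalized reads in Val and 31.2, 34.4, 31.5 and 28.7 in Ile, and at 83.4, 76.1, 71.9 and 68.2 in Cys, against 51.9, 56.6, 34 and 56 in Ctrl. Ctrl replicate C stood apart from the other 3 Ctrl libraries and overlapped the Ile group, while Val lay below and Cys above all of Ctrl. *ALP1* fell in Val (-0.73 ± 0.15, limma adjusted p = 0.00185) and Ile (-0.62 ± 0.15, 0.0183) and rose in Cys (0.61 ± 0.15, 0.0191). *ALP1* in Ile was not called without Ile replicate A or D or Ctrl replicate A, B or D (log2 -0.61 to -0.54, adjusted p 0.0535 to 0.114). The call of *ALP1* in Cys was lost without Cys replicate A or B or Ctrl replicate C (log2 0.44 to 0.60, adjusted p 0.0540 to 0.124). Under equal library totals the call in Cys was lost as well (log2 0.54, adjusted p 0.0692). In fits to the 2 groups alone the adjusted p was 0.0532 in Val, 0.187 in Ile and 0.188 in Cys. In Phe its difference was -0.47 (adjusted p = 0.0619, and 0.0435 with the letters as a block). *CAN1*, whose promoter carries the clustered GATAAG copies shown above, had 2323, 1643, 2242 and 2520.5 in Ala, against 2691, 2804, 3020.2 and 3207 in Ctrl. It fell in Ala (-0.44 ± 0.13, adjusted p = 0.00665) with no overlap, and no other difference from Ctrl was called. The call of *CAN1* in Ala was lost without Ala replicate B (log2 -0.31, adjusted p 0.0576). It was also lost under equal library totals (log2 -0.25, adjusted p 0.0823). In Thr the *CAN1* difference was -0.38 (adjusted p = 0.0573, and 0.0209 with the letters as a block). *HIP1* had 2454, 1887, 1725 and 2934 in Ala, against 3007, 3055, 3247 and 3639 in Ctrl, and fell by a log2 difference of -0.55 ± 0.16 (adjusted p = 0.00615) with no overlap. Whole reads were found for *HIP1* in 11 of 40 libraries, so its level is uncertain.

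*DIP5*, for the permease of the dicarboxylic amino acids glutamate and aspartate, was the member raised by the most amino acids, together with *AVT7*. *DIP5* had 3501, 3543, 3941 and 3001 normalized reads in Ala, 3055, 2583, 4490.3 and 3133 in Phe and 3354, 2865, 3314 and 2393 in Val, against 684, 962, 1121 and 1244 in Ctrl. It had 2747, 3161, 2082 and 4115 in Trp, 2738, 4078, 1700.4 and 2177 in Met and 2159.9, 2427, 1968 and 2375 in Ile. All 24 libraries of these 6 groups lay above the highest Ctrl library. The differences were 1.83 ± 0.29 in Ala, 1.73 ± 0.29 in Phe, 1.59 ± 0.29 in Val, 1.58 ± 0.29 in Trp, 1.37 ± 0.29 in Met and 1.18 ± 0.29 in Ile (limma adjusted p = 5.71e-06, 8.58e-05, 4.69e-04, 2.86e-04, 0.00177 and 0.0204). In Gly it had 1288, 783, 2671 and 1697, in Thr 1103, 1923, 1464 and 1580.3 and in Cys 871, 939.8, 2086 and 2223, with differences of 0.58, 0.60 and 0.51 that were not called and groups that overlapped Ctrl. *DIP5* in Ile was not called without Ile replicate A, B or D or Ctrl replicate A or B (log2 1.01 to 1.20, adjusted p 0.0522 to 0.134).

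*PUT4*, the proline permease gene, was higher with Gly, and *UGA4*, for a permease of GABA, with Ala, Trp, Val and Gly. Together with *GAP1* these are the genes of the set best known for repression by good nitrogen sources. Of the 3, 2 rose in each of Gly, Val and Trp, 1 in each of Ala, Ile and Phe, and 1 fell in Met. Of all genes, 14% rose in Gly, 2.51% in Val, 6.32% in Trp, 23.1% in Ala, 1.26% in Ile and 3.7% in Phe, and 3.74% fell in Met. With 3 genes these counts are a description. *PUT4* had 84.5, 76.1, 267 and 133 normalized reads in Gly, against 43, 48.6, 54.5 and 61.4 in Ctrl, with no overlap, and rose by 1.24 ± 0.29 (limma adjusted p = 0.00145). Gly replicate C, the Gly library with the highest *PUT4*, also had the highest stress sum of that group, 8562 normalized reads, and the part of this in the result was not tested. In Phe *PUT4* had 87.3, 72.1, 193 and 56.5, and the difference of 0.81 ± 0.29 was not called (adjusted p = 0.104, and 0.0486 with the letters as a block). The value of 193 came from Phe replicate C, the library with the high stress sum, and that of Phe replicate D lay within the Ctrl range. The part of that stress sum in the difference was not tested. *UGA4* had 88, 87.6, 81.8 and 75.1 in Ala, 66, 77.1, 80.8 and 81.2 in Trp, 85.7, 68, 66 and 61.9 in Val and 65, 69.3, 71.2 and 54.3 in Gly, against 46, 52.6, 44.6 and 49.4 in Ctrl. These 4 groups lay above Ctrl with no overlap, at levels among the lowest of the set. *UGA4* rose by 0.78 ± 0.15 in Ala, 0.65 ± 0.15 in Trp, 0.53 ± 0.15 in Val and 0.42 ± 0.15 in Gly (adjusted p = 9.16e-05, 0.00349, 0.0302 and 0.0382). *UGA4* in Val was not called without Val replicate A, B or C or Ctrl replicate A, C or D (log2 0.43 to 0.56, adjusted p 0.0537 to 0.140). *UGA4* in Gly lost its call without Gly replicate A, B or C or Ctrl replicate A, C or D (log2 0.37 to 0.43, adjusted p 0.0598 to 0.113). The same calls were lost under equal library totals (log2 0.48, adjusted p 0.0717 in Val and log2 0.42, adjusted p 0.0574 in Gly) and in fits to the 2 groups alone (adjusted p = 0.0574 and 0.0947).

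The permeases of sulfur amino acids and their derivatives were lower with Cys in 3 of 4 cases, and *MMP1* and *MUP1* were higher with several amino acids that hold no sulfur. *MUP1* encodes the high-affinity methionine permease, *MUP3* a low-affinity one, *MMP1* the permease of S-methylmethionine and *SAM3* that of S-adenosylmethionine. *MMP1* had 83.4, 72.7, 87.9 and 68.2 normalized reads in Cys, against 162, 166, 214 and 156 in Ctrl. It had 341, 352, 406 and 272 in Ile, 289.9, 402, 273 and 292 in Ala and 293, 331, 290.0 and 292 in Val. In Thr it had 312, 326, 266 and 261 and in Gly 338, 189, 278 and 277. All Cys libraries lay below Ctrl, and those of Ile, Ala, Val and Thr above it, while Gly replicate B lay within the Ctrl range. The differences were -1.14 ± 0.14 in Cys (limma adjusted p = 1.15e-06), 0.97 ± 0.14 in Ile (5.00e-05), 0.84 ± 0.14 in Ala (1.45e-05), 0.80 ± 0.14 in Val (3.94e-04), 0.74 ± 0.14 in Thr (3.88e-04) and 0.61 ± 0.14 in Gly (0.00161). None of these calls was lost without any 1 library. In Met *MMP1* had 142, 149, 131 and 124, all below Ctrl, but the difference of -0.34 ± 0.14 was not called (adjusted p = 0.132).

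**Figure D4:**
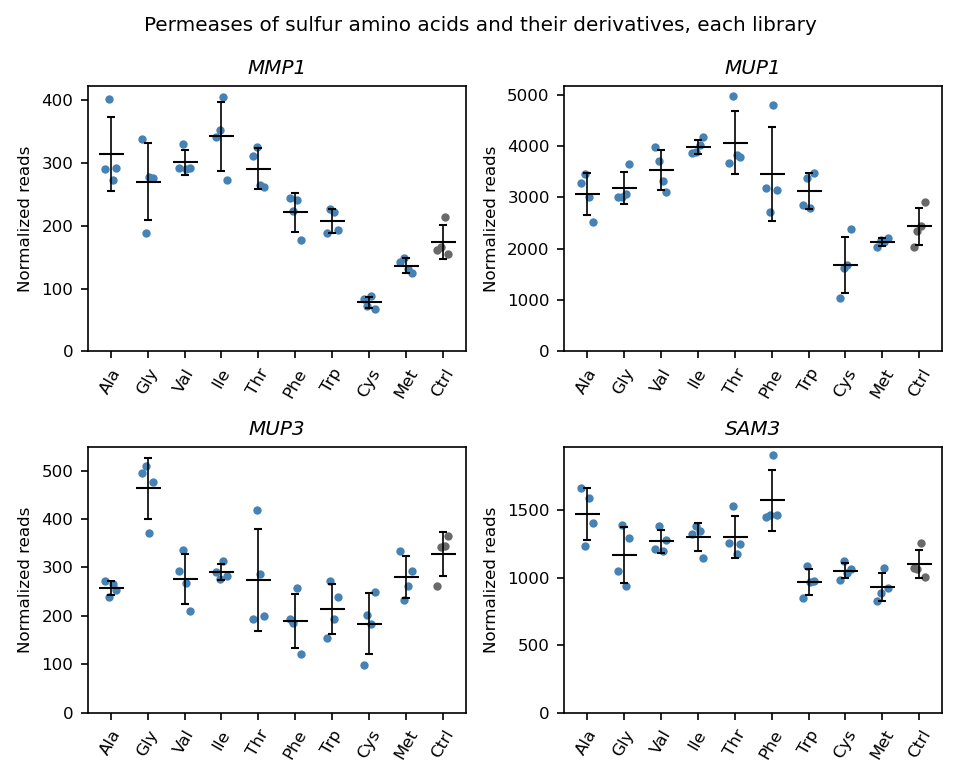
Normalized reads of the 4 permease genes of sulfur amino acids and their derivatives in each library (points), with the group mean and SD (n = 4), amino acid groups in blue and Ctrl in grey; each axis starts at 0. *MMP1* lies between 68.2 and 87.9 in Cys, below every other group, and *MUP3* in Gly reaches 510.5.

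*MUP1* had 3671, 4972, 3832 and 3794 normalized reads in Thr, 3867, 3891, 4016 and 4170.2 in Ile and 3984, 3713, 3315 and 3111 in Val, against 2039, 2335, 2438 and 2916 in Ctrl. In Cys it had 1032, 1631, 1688 and 2374. The Thr, Ile and Val libraries lay above Ctrl with no overlap, and the highest Cys library overlapped Ctrl. *MUP1* rose by 0.74 ± 0.16 in Thr, 0.72 ± 0.16 in Ile and 0.54 ± 0.16 in Val and fell in Cys, by a log2 difference of -0.58 ± 0.16 (limma adjusted p = 0.00149, 0.00701, 0.0384 and 0.0382). With methionine, the substrate of its product, *MUP1* had 2031, 2168, 2138 and 2208, a difference of -0.18 ± 0.16 that was not called (95% interval -0.50 to 0.15). *MUP3* had 98.6, 203, 183 and 249 in Cys and 194, 185, 258 and 122 in Phe, against 263, 341, 345 and 364 in Ctrl, and both groups lay below Ctrl. The differences were -0.90 ± 0.23 and -0.83 ± 0.23 (adjusted p = 0.0207 and 0.0204). In Trp the *MUP3* difference was -0.63 (adjusted p = 0.0631, and 0.0491 with the letters as a block), and in Gly, where all 4 libraries lay above Ctrl, it was 0.50 ± 0.23 and not called. *SAM3* had 1452, 1463, 1909 and 1468 in Phe and 1663, 1234, 1589 and 1402 in Ala, against 1075, 1067, 1254 and 1008 in Ctrl. It rose by 0.51 ± 0.11 in Phe and 0.41 ± 0.11 in Ala (adjusted p = 0.00292 and 0.00317), with an overlap in Ala.

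Some of these calls were lost when a single library was left out. *MUP1* in Ile was not called without Ctrl replicate A (log2 0.64, adjusted p 0.0508). The call of *MUP1* in Val was lost without Val replicate A, B or C or Ctrl replicate A, B or C (log2 0.46 to 0.57, adjusted p 0.0601 to 0.153). *MUP1* in Cys lost its call without Cys replicate A, B or C or Ctrl replicate B, C or D (log2 -0.60 to -0.37, adjusted p 0.0649 to 0.237). *MUP3* in Cys was not called without Cys replicate A or Ctrl replicate B, C or D (log2 -0.88 to -0.63, adjusted p 0.0535 to 0.138). The call of *MUP3* in Phe was lost without Phe replicate D or Ctrl replicate B, C or D (log2 -0.80 to -0.63, adjusted p 0.0555 to 0.122). The call of *MUP1* in Val was also lost under equal library totals (log2 0.49, adjusted p 0.0569). In fits to the 2 groups alone the adjusted p was 0.252 for *MUP1* in Cys, 0.106 for *MUP3* in Cys and 0.0612 for *MUP3* in Phe. The letters TGTGGC, the core bound by the sulfur regulators Met31 and Met32, occurred at least once before 9 of the 35 genes and before 14.22% of all promoters, and 2 or more times before 4 of the 35 (*MMP1*, *MUP1*, *MUP3* and *AGP3*) and 1.365% of all. *MUP3*, also lower with Cys, held 2 copies, and so did *AGP3*, which was not called with Cys. The stretches of *MMP1* and *MUP1* are shown as examples of genes lower with Cys, with TGTGGC or its reverse complement GCCACA in capitals, 5′ to 3′ on the gene's strand in build R64. That of *MMP1* lies at chrXII:17753-17794, plus strand, and that of *MUP1* at chrVII:598981-599148, plus strand, both upstream of the coding sequence.
MMP1: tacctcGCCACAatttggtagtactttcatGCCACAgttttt
MUP1: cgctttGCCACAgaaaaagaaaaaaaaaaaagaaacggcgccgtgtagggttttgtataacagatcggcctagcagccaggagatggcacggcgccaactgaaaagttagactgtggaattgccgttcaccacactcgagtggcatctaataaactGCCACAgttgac
Each holds 2 copies, all 4 of them as GCCACA, and *SAM3*, which was not called in Cys, held 1 copy in its window. A match describes the sequence and not a bound site.

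Of the 3 genes for carriers of other solutes, *BIO5* was raised by 4 amino acids and *HNM1* was lower with Ala. *BIO5* encodes a permease of biotin precursors, *HNM1* the choline permease, and *TPO5* a polyamine exporter. *BIO5* had 624, 390.2, 797 and 417 normalized reads in Ala, 326, 315, 313 and 364 in Met, 235, 350.3, 304 and 227 in Phe and 297, 259, 233 and 308 in Cys, against 129, 163, 138 and 194 in Ctrl. None of these groups overlapped Ctrl, and Ala spanned the widest range. The rises were 1.78 ± 0.16 in Ala, 1.09 ± 0.16 in Met, 0.83 ± 0.16 in Phe and 0.82 ± 0.16 in Cys (limma adjusted p = 6.81e-11, 1.32e-05, 7.66e-04 and 0.00216), and each was kept without any 1 library. *HNM1* had 2854, 2440.4, 1871 and 3874 in Ala, against 4138, 4288, 6029 and 5071 in Ctrl, with no overlap, and fell there (-0.86 ± 0.19, adjusted p = 5.09e-04). *TPO5* had group means of 591 to 684 with the 9 amino acids and 630.5 ± 58.3 in Ctrl. Its differences from Ctrl ran from -0.10 in Gly to 0.12 in Ile and none was called, although under equal library totals it was called higher in Ala (log2 0.23, adjusted p 0.0270).

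In the vacuolar group, *AVT7* was higher with 6 amino acids, and the other changes were seen with Ala. AVT proteins move neutral and other amino acids across the vacuolar membrane, Avt1 into the vacuole and Avt3, Avt4, Avt6 and Avt7 out of it. *AVT7* had 1798, 2135, 2075 and 1972 normalized reads in Gly and 1514, 1307, 1521 and 1459 in Ala, against 972, 1000.1, 1016 and 1015 in Ctrl. It had 1233, 1238, 1499 and 1236 in Phe, 1174, 1381, 1268 and 1298 in Trp, 1201, 1245, 1122 and 1362 in Thr and 1091, 1208, 1224 and 1313 in Val. All 24 libraries of these groups lay above Ctrl, whose 4 libraries lay within a narrow band. The stress sum was above Ctrl in every library of these 6 groups as well, and also in every library of Met, where *AVT7* was not called. The part of the stress sum was not tested. The rises were 0.99 ± 0.08 in Gly (limma adjusted p = 1.72e-12), 0.53 ± 0.08 in Ala (9.26e-07), 0.37 ± 0.08 in Phe (0.00119), 0.35 ± 0.08 in Trp (0.00195), 0.30 ± 0.08 in Thr (0.00838) and 0.27 ± 0.08 in Val (0.0302). Without Phe replicate C the rise in Phe was 0.30 (adjusted p = 0.0135). *AVT7* in Thr was not called without Thr replicate D (log2 0.25, adjusted p 0.0502). The call of *AVT7* in Val was lost without Val replicate B, C or D or Ctrl replicate A, B or D (log2 0.23 to 0.28, adjusted p 0.0622 to 0.113). Under equal library totals the call in Val was lost too (log2 0.22, adjusted p 0.120). In Ile, Cys and Met *AVT7* stood at 1137 ± 68.2, 1173 ± 51 and 1099 ± 86.8, against 1001 ± 20.4 in Ctrl (SD, n = 4 each), and was not called.

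With Ala, *VBA1* was higher and *AVT4*, *YPQ1* and *YPQ2* were lower. Vba1 carries basic amino acids into the vacuole, Ypq1 and Ypq2 are known for import of lysine and arginine, and Avt4 exports neutral and basic amino acids. *VBA1* had 1269.7, 1162, 1065 and 1359.8 normalized reads in Ala, against 864, 958, 940.2 and 973 in Ctrl, and *AVT4* had 701, 701, 597 and 677 in Ala, against 807, 857, 904 and 863 in Ctrl. *YPQ1* had 1688, 1319, 1312 and 1949 in Ala, against 2194, 2079.6, 2479 and 2289.6 in Ctrl, and *YPQ2* had 267, 288, 259.8 and 283 in Ala, against 444, 434, 425 and 427 in Ctrl. Ala and Ctrl did not overlap for any of the 4 genes. *VBA1* rose by 0.37 ± 0.10 (limma adjusted p = 0.00308), and the log2 differences of the genes that fell were -0.36 ± 0.10 for *AVT4* (0.00331), -0.55 ± 0.15 for *YPQ1* (0.00365) and -0.65 ± 0.11 for *YPQ2* (5.94e-06). Under equal library totals the *AVT4* call was lost (log2 -0.17, adjusted p 0.119). The hypoxia and stress sums were also high in Ala, and their part in these differences was not tested. Over Ala replicates A to D the hypoxia sums were 44081, 33708, 27448 and 58254. The stress sums were 2152, 3454, 4277 and 1306, in the opposite order.

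**Figure D5:**
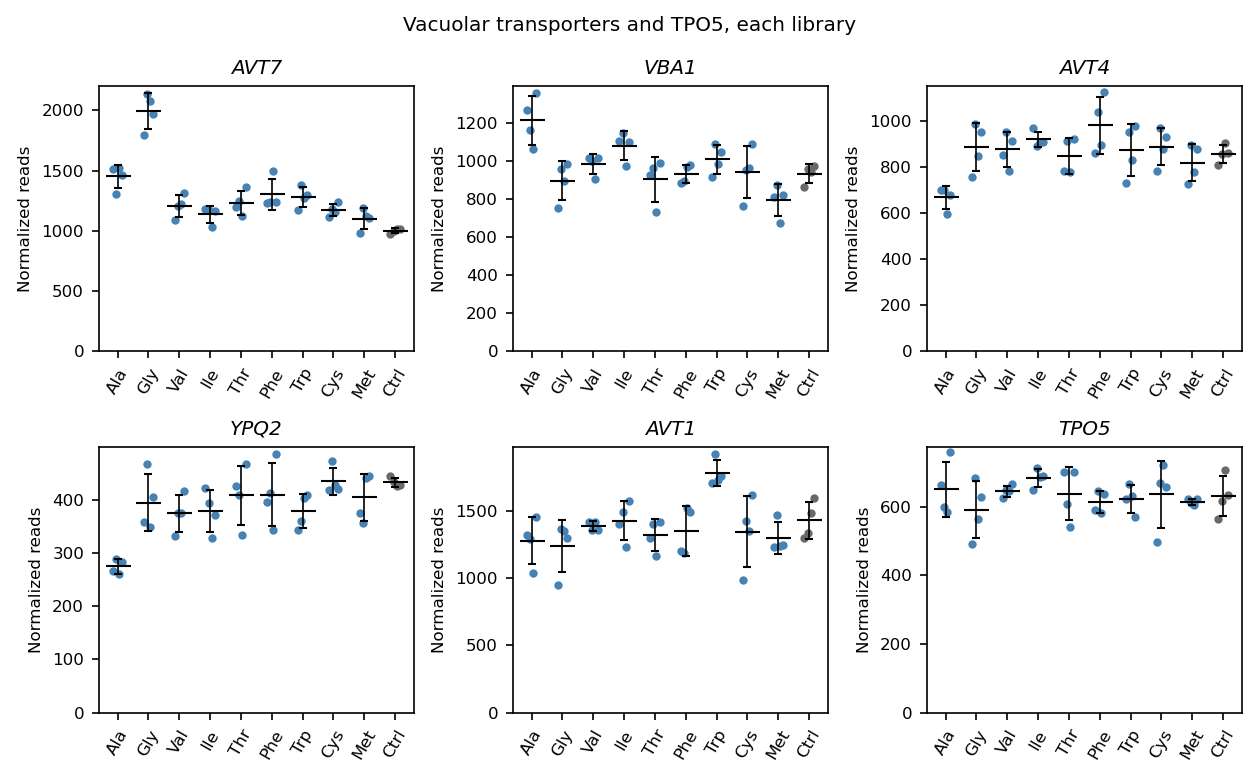
Normalized reads of 5 vacuolar transporter genes and *TPO5* in each library (points), with the group mean and SD (n = 4), amino acid groups in blue and Ctrl in grey; each axis starts at 0. *AVT7* in Gly lies between 1798 and 2135, above all other groups, *YPQ2* in Ala below all other groups, and *TPO5* shows no separate group.

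The remaining vacuolar genes, *AVT1*, *AVT2*, *AVT3*, *AVT5*, *AVT6*, *VBA2* and *VBA5*, were not called against Ctrl with any amino acid. Trp gave the highest levels of *AVT1* and *AVT6*, whose product exports acidic amino acids. *AVT1* had 1706, 1919, 1729 and 1757 normalized reads in Trp, against 1300.1, 1333, 1482 and 1595 in Ctrl, and *AVT6* had 877, 805, 765 and 841 in Trp, against 542, 527, 527 and 669 in Ctrl. Neither gene's Trp libraries overlapped Ctrl, and the limma adjusted p was 0.0831 and 0.0900 (log2 0.32 ± 0.12 and 0.54 ± 0.21). With the letters as a block *AVT1* passed (0.0412). *AVT5* was lowest in Cys, at 183, 232, 204 and 248, against 252, 262, 274 and 269.9 in Ctrl, a difference of -0.30 ± 0.09 (adjusted p = 0.0580, and 0.0294 with the letters as a block). *AVT2* stood between 135 ± 7.79 in Gly and 204 ± 29.9 in Ala, against 169 ± 14 in Ctrl (SD, n = 4 each). *VBA2* stood between 341 ± 34.3 in Val and 481 ± 52.4 in Phe, against 389 ± 66.4 in Ctrl, and *AVT3* between 910.2 ± 149.5 in Gly and 1133 ± 96.9 in Met, against 1029 ± 112 in Ctrl. Under equal library totals *AVT2* was called higher in Ala (log2 0.44, adjusted p 0.0136) and *AVT5* lower in Cys (log2 -0.36, adjusted p 0.0157). Whole reads were found for *AVT3* in 12 of 40 libraries, and *VBA5* is a close copy of *VBA3*, so both levels are uncertain. *VBA5* stood between 89.9 ± 9.10 in Thr and 104 ± 13.5 in Ile, against 91.8 ± 11.9 in Ctrl. No vacuolar gene was called by limma in Ile, Cys or Met; 2, 3 and 1 of the 12 had an unadjusted p under 0.05 there.

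For each amino acid, the permeases known to carry it were looked at as a list, and no list had more than 2 genes called. The share of all genes called ran from 1.92% in Ile to 47.2% in Ala, so these counts are not compared between amino acids. With Ala, of *GAP1*, *AGP1*, *DIP5* and *PUT4*, *DIP5* rose and *AGP1* fell. With Gly, of the same 4 genes, *PUT4* rose and *AGP1* fell. With Val and Ile, *GAP1* rose and *AGP1*, *BAP2*, *BAP3* and *TAT1* were not called. With Phe, *GAP1* rose and *AGP1*, *BAP2*, *TAT1* and *TAT2* were not called. With Trp, *GAP1* rose, *TAT1* fell, and *TAT2*, *BAP2* and *BAP3* were not called. With Cys, *BAP2* fell and the other 6 of 7 listed carriers were not called. *MUP1*, which was called lower with Cys, was not on the Cys list. With Met, *GAP1* fell and *AGP1*, *GNP1*, *MUP1* and *MUP3* were not called. With Thr none of *GAP1*, *AGP1*, *GNP1* and *TAT1* was called by limma, and none of them had an unadjusted p under 0.05. The median log2 difference of the listed carriers was 0.48 in Phe, 0.41 in Gly, 0.36 in Ile, 0.26 in Val, -0.01 in Ala, -0.09 in Cys, -0.13 in Thr, -0.18 in Met and -0.21 in Trp, with 4 to 7 genes in a list and medians over all genes between -0.02 and 0.00.

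Over the mean of the 9 amino acids, 7 genes were called against Ctrl beside 9.03% of all genes, 5 higher beside 5.15% and 2 lower beside 3.88%. *DIP5* (1.22 ± 0.22), *AGP2* (0.62 ± 0.18), *BIO5* (0.56 ± 0.12), *AVT7* (0.37 ± 0.06) and *MMP1* (0.34 ± 0.11) were higher, and *LYP1* (-0.38 ± 0.10) and *TAT1* (-0.34 ± 0.09) lower (limma adjusted p = 2.07e-04, 0.0200, 0.00225, 2.06e-05, 0.0386, 0.0109 and 0.0114 in that order). With the letters as a block *TAT2* (-0.28, adjusted p = 0.0205) and *UGA4* (0.34, 0.0383) passed too. *AGP2* was not called without Ctrl replicate A or B (log2 0.52 to 0.54, adjusted p 0.119 to 0.139). The call of *MMP1* was lost without Ctrl replicate A, B or D (log2 0.29 to 0.32, adjusted p 0.135 to 0.185). *LYP1* lost its call without Ctrl replicate D (log2 -0.32, adjusted p 0.0934). *TAT1* was not called without Ctrl replicate C (log2 -0.31, adjusted p 0.0640).

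A gene was said to be set apart by an amino acid where it was called against Ctrl and also, in the same direction, against the average of the 8 other amino acid groups. This held for 47 pairs of gene and amino acid, beside 9.08% of all such pairs over all genes. There were 18 in Ala (40.6% of all genes), 7 in Gly (17.3%), 5 in Cys (2.36%), 4 in Ile (0.885%) and 4 in Met (5.47%). There were 3 in Val (1.85%), 3 in Phe (2.65%), 2 in Thr (5.75%) and 1 in Trp (4.83%). With the letters as a block there were 55 pairs, the 8 added being *BAP3* and *CAN1* in Thr, *BAP2*, *ALP1* and *PUT4* in Phe, *GAP1* and *AVT1* in Trp and *AVT5* in Cys. In Cys, *MMP1* lay -1.67 ± 0.11 and *MUP1* -1.01 ± 0.12 (log2) from that average, and in Met *GAP1* lay -1.32 ± 0.15 from it. As higher, *MMP1* was also set apart in Ala, Gly, Val, Ile and Thr, and *GAP1* in Val, Ile and Phe. The genes set apart in Val, *GAP1*, *ALP1* and *MMP1*, were all set apart in Ile too. Being set apart therefore does not make a change particular to a single amino acid. *BAP2* was set apart both ways, by 0.85 ± 0.13 in Met and -0.77 ± 0.13 in Cys, and so was *ALP1*, by 0.71 ± 0.11 in Cys, -0.79 ± 0.11 in Val and -0.67 ± 0.11 in Ile. *BIO5* lay 1.38 ± 0.12 from the others in Ala, and *PUT4* 1.14 ± 0.22 and *AVT7* 0.70 ± 0.06 in Gly. *DIP5*, high with 6 amino acids, was set apart in Ala alone (0.68 ± 0.22), and *LYP1* with none.

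Amino acids of related structure were compared with each other in 4 pairs, with doses that the labels do not give. Between Ile and Val, branched-chain amino acids that differ by a methylene group in the side chain, no gene of the set was called by limma and none had an unadjusted p under 0.05, beside 0.131% of all genes called. The log2 differences ran from -0.51 ± 0.29 for *PUT4* to 0.26 ± 0.13 for *LYP1*, and the 95% interval for *GAP1* was -0.57 to 0.26 and that for *DIP5* -1.01 to 0.19, so differences within these bounds are not excluded.

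Between the aromatic amino acids Phe and Trp, 8 genes were called beside 11.9% of all genes, 5 higher in Phe beside 5.87% and 3 lower beside 6.03%. Higher in Phe than in Trp were *BAP2* (0.98), *AGP1* (0.71), *SAM3* (0.69), *VBA2* (0.48) and *CAN1* (0.45), and lower were *AVT6* (-0.71), *ALP1* (-0.52) and *AVT1* (-0.41). *BAP2* had 7043 ± 819 normalized reads in Phe and 3595 ± 615 in Trp (SD, n = 4 each, limma adjusted p = 1.74e-04), and *SAM3* had 1573 ± 224 in Phe and 969 ± 98.4 in Trp (6.50e-05). These 2 calls were kept without any 1 library. Each of the other 6 was lost without at least 1 of the libraries. *AGP1* was not called without Phe replicate D or Trp replicate A (log2 0.59 to 0.61, adjusted p 0.0565 to 0.0680). The call of *CAN1* was lost without Phe replicate D or Trp replicate A or D (log2 0.33 to 0.46, adjusted p 0.0503 to 0.125). *ALP1* lost its call without Phe replicate A or B or Trp replicate A, B or D (log2 -0.53 to -0.43, adjusted p 0.0534 to 0.0883). *AVT1* was not called without Phe replicate A or B or Trp replicate B or D (log2 -0.41 to -0.35, adjusted p 0.0559 to 0.112). The call of *AVT6* was lost without Phe replicate A, B or D or Trp replicate A or D (log2 -0.70 to -0.58, adjusted p 0.0631 to 0.122). *VBA2* lost its call without Phe replicate A, B or D or Trp replicate A, C or D (log2 0.42 to 0.50, adjusted p 0.0586 to 0.143). The count was 4 without Phe replicate A, B or D and 3 without Trp replicate A or D, and in a fit to these 2 groups alone it was 4. Under equal library totals 6 genes were higher and 2 lower, beside 440 and 226 of all genes, with the *ALP1* call lost (log2 -0.48, adjusted p 0.0563).

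Between the sulfur amino acids Met and Cys, 14 genes were called beside 26.6% of all genes, 8 higher in Met beside 13.4% and 6 lower beside 13.3%. Higher in Met were *BAP2* (1.44), *DIP5* (0.86), *BAP3* (0.81), *MMP1* (0.80), *MUP3* (0.67), *AVT6* (0.57), *AVT5* (0.44) and *AVT3* (0.28), and lower were *GAP1* (-1.04), *AGP1* (-0.64), *HNM1* (-0.62), *CAN1* (-0.44), *LYP1* (-0.42) and *GNP1* (-0.28). *BAP2* had 7346 ± 119 normalized reads in Met and 2817 ± 952 in Cys (SD, n = 4 each, limma adjusted p = 8.15e-08), *GAP1* 1195 ± 359 in Met and 2439 ± 614 in Cys (3.01e-04), and *AVT5* 293 ± 28.9 in Met and 217 ± 28.7 in Cys (3.98e-04). The calls of *BAP2*, *BAP3*, *GAP1*, *MMP1* and *AVT5* were kept without any 1 library. Each of the other 9 was lost without at least 1 of the libraries. *AGP1* was not called without Met replicate A (log2 -0.54, adjusted p 0.0534). The call of *GNP1* was lost without Met replicate A, C or D or Cys replicate B, C or D (log2 -0.27 to -0.22, adjusted p 0.0617 to 0.0987). *CAN1* lost its call without Met replicate A or B or Cys replicate B (log2 -0.39 to -0.36, adjusted p 0.0517 to 0.0641). *LYP1* was not called without Met replicate A or B or Cys replicate B (log2 -0.38 to -0.35, adjusted p 0.0643 to 0.0844). The call of *HNM1* was lost without Met replicate B or Cys replicate B (log2 -0.58 to -0.55, adjusted p 0.0537 to 0.0652). *DIP5* lost its call without Met replicate A or B or Cys replicate A or B (log2 0.63 to 0.82, adjusted p 0.0650 to 0.146). *MUP3* was not called without Met replicate A or D or Cys replicate A (log2 0.40 to 0.65, adjusted p 0.0523 to 0.170). The call of *AVT3* was lost without Met replicate A, B or C or Cys replicate A, C or D (log2 0.20 to 0.30, adjusted p 0.0537 to 0.187). *AVT6* lost its call without Met replicate A or B or Cys replicate A or B (log2 0.36 to 0.59, adjusted p 0.0681 to 0.240). The count was 8 without Met replicate B or Cys replicate B and 7 without Met replicate A, and in a fit to these 2 groups alone it was 8. Equal library totals shifted the all-gene median by 0.14 (log2) and gave 9 genes higher and 3 lower, beside 1385 and 325 of all genes. With that scaling *GNP1* (log2 -0.14, adjusted p 0.242), *CAN1* (log2 -0.30, adjusted p 0.0608) and *LYP1* (log2 -0.28, adjusted p 0.0810) were no longer called. With the letters as a block *ALP1* (-0.37, adjusted p = 0.0498), *MUP1* (0.41, 0.0480) and *VBA1* (-0.24, 0.0294) passed as well.

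Between Ala and Gly, which differ by a methyl side chain, 14 genes were called beside 30.8% of all genes, 5 higher in Ala beside 15.6% and 9 lower beside 15.2%. Higher in Ala were *BIO5* (1.47), *DIP5* (1.25), *AVT2* (0.58), *VBA1* (0.44) and *SAM3* (0.34), and lower were *PUT4* (-1.34), *MUP3* (-0.84), *HNM1* (-0.68), *TAT1* (-0.55), *HIP1* (-0.52), *YPQ2* (-0.51), *AVT7* (-0.46), *YPQ1* (-0.44) and *AVT4* (-0.40). *DIP5* had 3496 ± 385 normalized reads in Ala and 1609.7 ± 800.4 in Gly (SD, n = 4 each, limma adjusted p = 0.00111), and *AVT7* had 1450.4 ± 99.5 in Ala and 1995 ± 148 in Gly (1.19e-05). Of the 14, 10 were kept without any 1 library and 4 were not. *HIP1* was not called without Ala replicate B or C or Gly replicate B or D (log2 -0.45 to -0.37, adjusted p 0.0565 to 0.101). The call of *SAM3* was lost without Ala replicate A or C or Gly replicate A or C (log2 0.24 to 0.30, adjusted p 0.0647 to 0.102). *HNM1* lost its call without Ala replicate C or Gly replicate B (log2 -0.51 to -0.48, adjusted p 0.0558 to 0.0592). *YPQ1* was not called without Ala replicate B or C or Gly replicate B or D (log2 -0.37 to -0.30, adjusted p 0.0907 to 0.156). Equal library totals shifted the all-gene median by 0.19 (log2) and gave 10 genes higher and 6 lower, beside 1945 and 451 of all genes. With that scaling the calls of *HIP1* (log2 -0.33, adjusted p 0.0757), *AVT4* (log2 -0.21, adjusted p 0.0670) and *YPQ1* (log2 -0.25, adjusted p 0.132) were lost.

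Of 29 genes known to regulate these permeases, from the SPS sensor and the GATA factors to the arrestins that direct permeases to the ubiquitin ligase Rsp5, 28 were in the table. In Ala 7 were higher and 5 lower, in Gly 6 and 1, in Val 1 and 2, in Phe 1 and 2, in Trp 1 and 1, and in Thr and Met 1 was lower. The 12 of 28 in Ala and 7 of 28 in Gly stood beside 47.2% and 26.2% of all genes, and the counts elsewhere beside 5.39% in Val, 5.6% in Phe, 12.3% in Trp, 11.2% in Thr and 9.8% in Met. In Ile and Cys limma called none. The shares of these regulators were thus near or below those of all genes, except in Val and Phe with 3 of 28 each. *GAT1*, the gene of a GATA activator, had 1739 ± 352 normalized reads in Phe and 1405 ± 24.5 in Val, against 859.9 ± 216 in Ctrl (SD, n = 4 each), and rose by 1.03 ± 0.18 in Phe, 0.74 ± 0.18 in Val, 0.62 ± 0.18 in Trp and 0.56 ± 0.18 in Gly (limma adjusted p = 9.94e-05, 0.00772, 0.0166 and 0.0179). *STP1*, the gene of an SPS-released activator, rose in Gly to 1444 ± 136, against 923 ± 49.5 in Ctrl (0.64 ± 0.08, adjusted p = 1.11e-07). *ASI1* and *ASI2*, whose products hold back unprocessed Stp factors at the nuclear membrane, rose in Ala (0.59 ± 0.17 and 0.50 ± 0.13, adjusted p = 0.00373 and 0.00231). The arrestin gene *ART5* fell in Thr (-0.62 ± 0.11, adjusted p = 1.48e-04), Gly (-0.51 ± 0.11, 7.45e-04) and Met (-0.38 ± 0.11, 0.0249), *ECM21* in Ala (-0.50 ± 0.12, 7.90e-04), Val (-0.40 ± 0.12, 0.0364) and Phe (-0.40 ± 0.12, 0.0348), *ALY2* in Val (-0.48 ± 0.12, 0.00848) and Trp (-0.34 ± 0.12, 0.0498), and *ROD1* in Phe (-0.44 ± 0.12, 0.0199). *DAL80*, for a GATA repressor, was higher in Gly and Ala but at few reads, 11.8 ± 3.98 in Gly and 11.3 ± 4.12 in Ala, against 3.16 ± 3.15 in Ctrl (1.98 ± 0.59 and 1.91 ± 0.59, adjusted p = 0.0119 and 0.00796). Several of these calls were lost when a single library was left out. *GAT1* in Trp was not called without Trp replicate D or Ctrl replicate A or B (log2 0.52 to 0.55, adjusted p 0.0718 to 0.0813). The call of *GAT1* in Gly was lost without Gly replicate C or D or Ctrl replicate A or B (log2 0.42 to 0.48, adjusted p 0.0708 to 0.0933). *DAL80* in Gly lost its call without Ctrl replicate D (log2 1.43, adjusted p 0.0829). *DAL80* in Ala was not called without Ctrl replicate D (log2 1.36, adjusted p 0.0612). Among the arrestin genes the calls in Ala, Thr and Gly were kept without any 1 library, and the others were not. The call of *ART5* in Met was lost without Met replicate C or Ctrl replicate D (log2 -0.30 to -0.27, adjusted p 0.102 to 0.147). *ECM21* in Val lost its call without Val replicate A, C or D or Ctrl replicate B, C or D (log2 -0.43 to -0.32, adjusted p 0.0586 to 0.144). *ECM21* in Phe was not called without Phe replicate A, B or D or Ctrl replicate C or D (log2 -0.42 to -0.32, adjusted p 0.0554 to 0.177). The call of *ALY2* in Val was lost without Ctrl replicate D (log2 -0.42, adjusted p 0.0502). *ALY2* in Trp lost its call without Trp replicate A, B, C or D or Ctrl replicate A, B or D (log2 -0.37 to -0.28, adjusted p 0.0531 to 0.148). *ROD1* in Phe was not called without Phe replicate B or D or Ctrl replicate B or D (log2 -0.43 to -0.37, adjusted p 0.0523 to 0.104).

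Among 12 other nitrogen transporter genes, for ammonium, peptides, urea, allantoin and bases, *MEP2*, *MEP1* and *PTR2* are named because they were called in 3 or more comparisons. Of all genes, 61.6% were called in at least 1 and 4.47% in at least 5 of the 9 comparisons with Ctrl. The share called in at least 3 was not counted, so this is a rule for naming and not a result. *MEP2*, the high-affinity ammonium permease gene, had 2531 ± 125 normalized reads in Val, 2222 ± 353 in Ile, 2094 ± 400.5 in Cys, 1916 ± 351 in Phe, 1613 ± 233 in Trp and 606 ± 193 in Met, against 985 ± 271 in Ctrl (SD, n = 4 each). It rose by 1.40 ± 0.20, 1.20 ± 0.20, 1.11 ± 0.20, 0.98 ± 0.20 and 0.74 ± 0.20 in the first 5 of these groups and fell in Met (-0.71 ± 0.20; limma adjusted p = 1.80e-05, 3.33e-04, 7.27e-04, 0.00133, 0.0137 and 0.0216). *GAP1* was called in the same direction in 5 of these 6 groups and was not called in Cys. *PTR2*, for the permease of small peptides, fell in Gly, Phe, Val and Ala and rose in Met, with log2 differences of -1.73 ± 0.15, -1.35 ± 0.15, -1.09 ± 0.15, -0.71 ± 0.15 and 0.68 ± 0.15 (adjusted p = 4.48e-11, 3.89e-08, 1.18e-05, 2.90e-04 and 0.00271). *MEP1*, another ammonium permease gene, rose in Cys (0.63 ± 0.15, adjusted p = 0.0141) and Ile (0.55 ± 0.15, 0.0498) and fell in Gly (-0.40 ± 0.15, 0.0497). The calls of *PTR2*, and those of *MEP2* in Val, Ile, Cys and Phe, were kept without any 1 library. The call of *MEP2* in Trp was lost without Trp replicate D or Ctrl replicate A or B (log2 0.61 to 0.67, adjusted p 0.0517 to 0.0742). *MEP2* in Met lost its call without Met replicate A, B or D or Ctrl replicate C or D (log2 -0.68 to -0.55, adjusted p 0.0553 to 0.113). Each of the 3 calls of *MEP1* was lost without at least 1 library. *MEP1* in Cys was not called without Cys replicate C or Ctrl replicate A or B (log2 0.52 to 0.54, adjusted p 0.0681 to 0.0941). The call of *MEP1* in Ile was lost without Ile replicate A, B or C or Ctrl replicate A, B or D (log2 0.44 to 0.58, adjusted p 0.0725 to 0.272). *MEP1* in Gly lost its call without Gly replicate A, B or D or Ctrl replicate C or D (log2 -0.41 to -0.23, adjusted p 0.0656 to 0.283).

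Set per kilobase of coding length (R64), the levels in Ctrl spanned a wide range. *GNP1* was highest at 3498 ± 370.5 normalized reads per kilobase, followed by *HNM1* (2885 ± 513), *LYP1* (2883 ± 244), *BAP2* (2706 ± 425), *AGP1* (2681 ± 512), *TAT1* (2458 ± 109) and *YPQ1* (2438 ± 183), and neighbours in this order overlapped (SD, n = 4). *YPQ1*, the highest vacuolar gene, did not overlap the next in order, *HIP1* (1786 ± 159). The levels of *GNP1* and *HIP1*, and so their places in this order, are uncertain, with whole reads in 8 and 11 of 40 libraries. *AGP3* (40.8 ± 2.96), *ALP1* (28.8 ± 6.15), *UGA4* (28.1 ± 2.09) and *PUT4* (27.6 ± 4.19) were lowest, with *ALP1*, *UGA4* and *PUT4* overlapping each other.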

How the data were processed

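The 40 libraries hold messenger RNA. Per the labels' protocols, DNase-treated total RNA went through poly(A) selection into a directional NEBNext Ultra II kit. The submitters' processing notes name STAR 2.7.8a and Partek, and do not say what each did. The genome build is not given in the sources used here, nor are the annotation and the use of strand in counting. The deposited values are signals, that is, read counts per gene which the authors had normalized. By which method is not stated, and a wrong scale of a library would shift all of its genes together. Besides 6462 genes the table has 4 emptied lines, which were left out. In each library 87.6 to 90.8% of the values up to 2000 estimated reads were whole multiples of a single step (within 0.1 read), from which depth was estimated. As the remainder were fractional, no count test was used. No pair of libraries from the same group agreed within sampling noise: the chi-square over its degrees of freedom was at least 5.51 in 60 pairs.

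The test was limma 3.58.1 in R 4.3.3 on log2(value + 1), with a trended prior and a mean for each group, fitted to the 40 libraries together. Genes whose mean was at least 5 entered, 6103 in all, p-values were adjusted by Benjamini-Hochberg over them in each comparison, and the threshold was 0.05. Changes of genes with few reads are understated on this scale. The steps were tested on simulated data. Since the labels call the letters A to D batches, libraries can be paired by letter. The main fit held no term for the letters, and the letters as a block were an alternative setting. The mean correlation of deviations from the group mean was 0.174 for libraries sharing a letter and -0.0576 for the rest, and 29 of 40 libraries matched their own letter best. Of 36 pairs with Ctrl, 24 were over 0.1 (-0.0655 to 0.492). Whether replicates were separate cultures is not in the labels, so the spread behind p-values may be technical in part. Motifs were searched on both strands in R64 (RefSeq), where 5851 of the table's names were found. Every member of the set could be named, with up to 4 called regulators per comparison, and other nitrogen transporters where called in at least 3. The genes and lists were chosen with earlier results of these data known. Results were recomputed with pseudocounts of 0.25 and 4, without the filter, with libraries rescaled to equal totals or by a median of ratios, with the letter as a block, in fits to the compared groups, and without each library in turn.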

Additional observations from a re-analysis of the deposited data

Results flagged for a closer look

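Each of the 35 genes was looked at in each of the 10 groups for a library far from the other 3 of its group (Dixon's test at the 95% level), 350 groups of 4 in all, and 19 libraries stood apart. Chance gives about 1 in 20 groups, which is near this number. Libraries of Phe stood apart for *SAM3* (replicate C at 1909, against 1452 to 1468 normalized reads in the other 3), *AVT7* (replicate C at 1499, against 1233 to 1238), *CAN1* (replicate D at 4176, against 3035 to 3152) and *AVT2* (replicate B at 124, against 176 to 179). Replicate C of Phe is the library with the high stress sum, and the part of that in its values was not tested. In Gly, replicate A was low for *AVT1* (949, against 1296 to 1361) and *AVT3* (688, against 957 to 1004), and replicate D high for *MUP1* (3653, against 3001 to 3063). In Met, replicate C was high for *AGP1* (7694, against 3752 to 4149.6), replicate A for *UGA4* (61.5, against 34.8 to 38.1) and replicate B for *AVT1* (1470.5, against 1228 to 1243). In Ile, replicate D was high for *PUT4* (47.9, against 41.1 to 42.2), and replicate C low for *AVT2* (133, against 182 to 189) and *AVT7* (1035, against 1160.2 to 1180.2). In Val, replicate B was high for *MMP1* (331, against 290.0 to 293) and replicate C low for *VBA1* (904, against 999 to 1017). Thr replicate B was high for *MUP1* (4972, against 3671 to 3832) and Cys replicate D for *AVT2* (185, against 128 to 135). In Ctrl, replicate C was low for *ALP1* (34, against 51.9 to 56.6) and replicate D high for *AVT6* (669, against 527 to 542), so every comparison of these genes with Ctrl holds that library.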

How the results depend on the processing

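All 115 called differences of the 35 transporter genes in the comparisons given kept their call with a pseudocount of 0.25 or 4, without the filter on low values, after rescaling by the median of ratios and with the letters as a replicate block. Under equal library totals 14 of them were lost, and in fits to the 2 compared groups alone 23 of the 108 that could be refitted, and none changed its sign. Rescaling by the median of ratios shifted the all-gene median of no comparison by more than 1.5e-04 (log2). It left the values nearly as they were, so it could not test the calls. Of the 32 called differences given for regulators and other nitrogen transporters, none changed its sign. Calls of *ALY2* in Trp and *MEP1* in Ile and Gly were lost without the filter. Equal totals cost 3 calls (*ART5* in Met, *ECM21* and *ROD1* in Phe), fits to the 2 groups 9, and the other whole-table settings none. The replicate block raised the counts to 8 in Thr, 9 in Phe, 9 in Trp, 7 in Cys, 9 for the mean of the 9, 17 between Met and Cys, 32 genes that varied and 55 pairs set apart. It changed no other call of the 35 genes than those given with it above. Fits to the 2 groups alone moved the count by more than 1.5 times in Thr (10), Trp (13), Cys (2), Phe against Trp (4) and Met against Cys (8). The cause was not tested. Leaving out 1 library at a time gave counts of 19 to 21 in Ala, 8 to 10 in Gly, 5 to 7 in Val, 2 to 5 in Ile, 4 to 6 in Thr, 5 to 7 in Phe, 4 to 7 in Trp, 3 to 7 in Cys, 3 to 6 in Met and 5 to 8 for the mean of the 9. It gave 29 to 32 genes that varied over the 10 groups, 42 to 51 pairs set apart, 0 genes between Ile and Val, 3 to 9 between Phe and Trp, 7 to 13 between Met and Cys and 10 to 14 between Ala and Gly. Depth limits *ALP1*, *UGA4*, *PUT4* and *AGP3* most, which had as few as 21 to 29 estimated reads in a library.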

Other observations

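Summed over the 23 plasma membrane genes, the level per kilobase of coding length was 32580.3 ± 3015 in Phe, 30235 ± 1540.0 in Ile, 23686 ± 2561 in Gly and 22672 ± 2180.0 in Ala, against 27458 ± 2155 in Ctrl (SD, n = 4 each). The sum over the 12 vacuolar genes was 7217 ± 1022 in Gly and 6337 ± 609 in Ala, against 6864 ± 339 in Ctrl, and the means of the other groups lay between these. Within the plasma membrane sum, the share of *DIP5* was 8.54% ± 1.56 in Ala, against 1.98% ± 0.347 in Ctrl. That of *GNP1*, whose level is uncertain, was 10.5% ± 0.857 in Ala, against 12.7% ± 0.596 in Ctrl. These sums were not tested.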
